A study of Homo sapiens with 11 samples.

Results

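The autophagy machinery of human cells was followed here through 10 core genes, MAP1LC3B, GABARAPL1, WIPI1, ATG3, ATG5, ATG12, ATG16L1, ULK1, BECN1 and NBR1. They were taken by name from a table of 38019 genes, and all 10 were present and passed the filter on low counts, as 10 of 17792 genes tested. The RNA came from HEK293T cells of wild-type genotype, a standard line derived from human embryonic kidney, after 6 h in each of 11 conditions. These were vehicle (0.1% DMSO), thapsigargin (Tg) at 500 nM, the compound AA147 at 10 µM, and the compound AA132 at 0.1, 0.3, 1, 3, 6, 10, 15 or 30 µM. Tg stops calcium uptake into the endoplasmic reticulum (ER), which sets off ER stress. The other compounds belong to a class of small molecules meant to adjust protein homeostasis in the ER, and the series title concerns how they activate separate arms of the unfolded protein response. Each condition had 3 numbered libraries. The labels do not say whether these are separate cultures, so a p-value measures only the spread between these libraries, which may be technical.

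Autophagy encloses cytoplasm in a double membrane and delivers it to the lysosome for breakdown. The ULK1 kinase complex starts the process, and a lipid kinase complex built around Beclin 1 (BECN1) makes the lipid PI3P on the forming membrane. WIPI proteins bind that lipid and recruit the ATG12-ATG5-ATG16L1 complex, which works with the enzymes ATG7 and ATG3 to attach ATG8-family proteins such as LC3B (MAP1LC3B) and GABARAPL1 to the membrane. Receptors such as NBR1 bind cargo and ATG8 proteins together. Much of autophagy is controlled through protein modification and membrane traffic, which RNA counts do not measure.

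The depth was even across most libraries. Totals ran from 32.3 to 37.96 M counts, and the second lowest was 36.4 M. Each member had at least 467 counts in every library. Within conditions, pairs of libraries differed by more than counting error, with a chi-square per degree of freedom of 4.48 to 59.4 and a median of 7.56. Library 1 of vehicle (59.4 and 46.2 against its partners), of AA132 10 µM (36.1 and 33.7) and of AA147 (23.0 and 22.2) stood apart from the other libraries of their condition, and main results are also given without these 3 libraries together. Of 7 genes typical of this line, 6 stood at 1 CPM (counts per M, scaled to library size) or more in every library, and PAX2 ranged from 0.40 to 1.53 CPM. Of 8 markers of blood, liver, stromal and endothelial cells, 0 reached 1 CPM in every library, their sum was at most 2.56 CPM, and APOA2 was at 0 throughout. The summed level of the 7 line markers was 2362 to 2854 CPM under vehicle and 1659 to 1718 CPM under Tg. In bulk RNA, fewer cells of a kind and less RNA per cell cannot be told apart, and the part of these shifts in the results was not tested. HSPA5, an ER chaperone, rose by 3.52 on the log2 scale under Tg (SE 0.17, edgeR adjusted p = 1.98e-17) and by 1.46 under AA132 at 30 µM (SE 0.16, adjusted p = 1.45e-07), and HMOX1, a gene of the oxidative stress response, rose by 3.94 under AA132 at 30 µM (SE 0.35, adjusted p = 6.53e-09).

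Tg moved most of the 10 genes, and AA132 moved a few of them at its higher doses. WIPI1 rose 5.48-fold under Tg, while the other called changes under Tg were at most 1.23-fold up and 0.82-fold down. A gene was called at an adjusted p under 0.05 in the quasi-likelihood F-test of edgeR, adjusted over all genes tested. Under Tg 8 of the 10 were called, against 31.2% of all genes tested. Of these, 6 were higher (16.2% of all genes) and 2 were lower (15% of all genes). The median log2 fold change of the 10 under Tg was 0.23, beside 0.0049 over all genes. Leaving out any 1 library of the comparison lowered the count to between 3 and 6. Leaving out the 3 libraries that stood apart lowered it to 6, against 32.3% of all genes in that fit. When only the vehicle and Tg libraries were fitted, 1 member, WIPI1, was called and 7 had an unadjusted p under 0.05. The share of all genes in that fit and in those that left out 1 library is not reported here.

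AA132 at 0.1, 0.3 and 1 µM had 0 called members, where 0%, 0% and 0% of all genes were called. An unadjusted p under 0.05 was found in 1, 0 and 0 members, and in 798, 980 and 1056 of all 17792 genes. At 3 µM 0 members were called against 0.118% of genes, with 1 at an unadjusted p under 0.05, beside 1635 of all genes. DESeq2 also called 0 members at these 4 doses. The libraries at 1 and 3 µM were unlike each other in treatment markers. HMOX1 ran from 11.5 to 39.8 CPM at 1 µM and from 14.2 to 49.3 CPM at 3 µM. HSPA5 ran from 1028 to 1660 CPM and from 1042 to 1969 CPM. What part this spread has in the results at these doses and in the slope on dose was not tested. At 6 µM 1 member was called against 1.07% of genes, at 10 µM 1 against 1.41%, at 15 µM 2 against 2.76%, and at 30 µM 3 against 7.05%. At 30 µM, 2 of the called members were higher (3.86% of all genes) and 1 was lower (3.19% of all genes), and the median log2 fold change of the 10 was 0.10, beside -0.0013 over all genes. AA147 at 10 µM had 0 called members with edgeR and 0 with DESeq2, against 0.0225% of all genes. An unadjusted p under 0.05 was found in 2 members and in 1211 of all 17792 genes. Fits of only the 2 conditions compared left 0 members called at 6, 10 and 15 µM, and GABARAPL1 and WIPI1 called at 30 µM (edgeR adjusted p = 0.0215 and 0.0234). These comparisons share the vehicle libraries, so their values are given side by side.

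**Figure D1:**
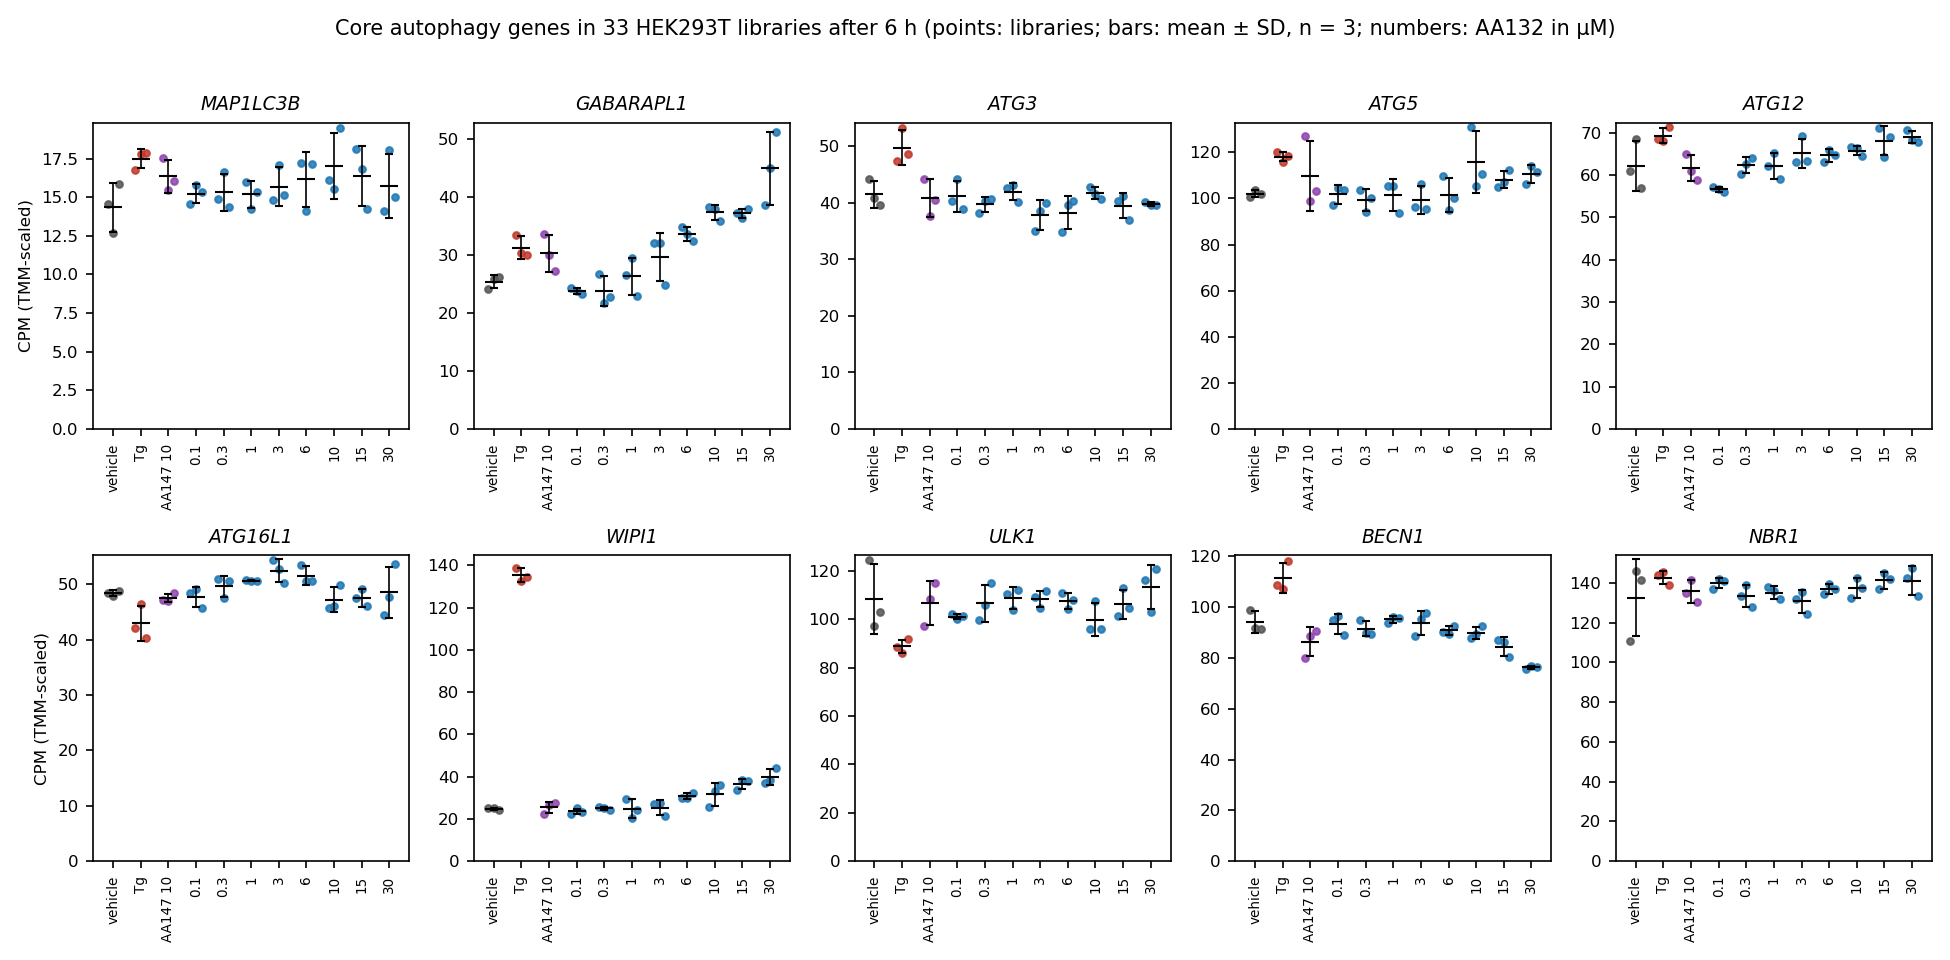
TMM-scaled CPM (linear axis, from 0) of the 10 core autophagy genes in 33 libraries, by condition; points are libraries, bars are the mean ± SD of 3, and numbers on the axis are AA132 doses in µM. WIPI1 stood at 133 to 139 CPM in the 3 Tg libraries and at 24.1 to 25.0 CPM in the vehicle libraries, and GABARAPL1 was highest under AA132 at 30 µM.

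ULK1, the kinase that starts autophagosome formation, fell under Tg. Its gene lies on chromosome 12 (131894622 to 131923150, plus strand, GRCh38 in GENCODE v44, as for all positions of genes below). The vehicle libraries held 124, 97.3 and 103 CPM and the Tg libraries 88.6, 86.1 and 91.6 CPM. All 3 Tg libraries lay below the vehicle libraries, and vehicle library 1 was the highest of the 33. ULK1 fell by 0.29 on the log2 scale (SE 0.077, edgeR adjusted p = 0.00452). Without vehicle library 1 the fall was 0.18 and was not called (-0.18, adjusted p = 0.0607; range over all alternatives 0.000517 to 0.0897), while without the 3 libraries that stood apart it was -0.18 and called (adjusted p = 0.0327). ULK1 was called at 0 AA132 doses, with 113 ± 9.16 CPM (SD, n = 3) at 30 µM against 108 ± 14.4 CPM under vehicle.

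BECN1, the scaffold of the PI3-kinase complex, moved in opposite directions under Tg and AA132. The gene is on chromosome 17 (42810134 to 42833350, minus strand). Vehicle libraries held 99.0, 91.8 and 91.6 CPM, Tg libraries 109, 107 and 118 CPM, and AA132 30 µM libraries 75.8, 76.7 and 76.4 CPM. The 3 sets of libraries did not overlap, with Tg highest and AA132 lowest. BECN1 rose by 0.25 under Tg (SE 0.058, edgeR adjusted p = 0.00127) and fell by 0.30 under AA132 at 30 µM (SE 0.058, adjusted p = 0.00107). Both calls were lost when only the 2 conditions compared were fitted, at adjusted p = 0.0721 and 0.178 (ranges over all alternatives 0.000146 to 0.0721 and 1.42e-05 to 0.178), with log2 changes of 0.24 and -0.30. Between AA132 doses BECN1 lay at 89.9 to 95.2 CPM as condition means from 0.1 to 10 µM and was 84.5 ± 3.68 CPM at 15 µM and 76.3 ± 0.479 CPM at 30 µM (SD, n = 3).

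WIPI1, which binds PI3P on the forming membrane, was the member that changed most. It lies on chromosome 17 (68420948 to 68457513, minus strand). The promoters of WIPI1 and GABARAPL1 are printed because these are the 2 members called higher under AA132 at 30 µM. They are the 250 bases before the RefSeq start of each gene (GRCh38.p14), given 5′ to 3′ on the strand of the gene, at chr17:68457497-68457746 (minus strand) and chr12:10212627-10212876 (plus strand). In WIPI1 the capitals mark CCAAT boxes, read as ATTGG or CCAAT, and in GABARAPL1 they mark TGACGTCA, a cyclic AMP response element motif.
WIPI1: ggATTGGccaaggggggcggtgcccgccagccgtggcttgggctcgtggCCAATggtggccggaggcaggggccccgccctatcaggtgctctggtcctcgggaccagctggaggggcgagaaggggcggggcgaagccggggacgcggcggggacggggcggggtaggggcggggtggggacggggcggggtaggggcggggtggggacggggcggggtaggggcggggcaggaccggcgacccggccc
GABARAPL1: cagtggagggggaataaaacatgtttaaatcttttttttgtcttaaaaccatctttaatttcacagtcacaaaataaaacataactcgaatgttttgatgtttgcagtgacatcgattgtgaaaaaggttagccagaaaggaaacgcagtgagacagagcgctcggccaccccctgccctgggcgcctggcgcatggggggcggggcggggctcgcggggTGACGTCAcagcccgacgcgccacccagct
The WIPI1 stretch had a GC content of 79.6% and held 2 CCAAT boxes, which 32% of all promoter windows contain on either strand. The GABARAPL1 stretch had a GC content of 51.6%, 0 CCAAT boxes and a TGACGTCA that begins 30 bases before the RefSeq start. Of all windows of this length, 1.65% hold that motif. The median GC content of all windows was 58%. Neither motif was among those planned, and the search for TGACGTCA was chosen after the sequence had been read. Among the members CCAAT was counted in these 2 alone, and a match describes letters only.

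All 10 members had a promoter entry, and 5 more motifs were searched on both strands in windows of 300 bases that reach past the start. TGATGNAAT, the composite C/EBP-ATF core, was in 0 members and in 0.991% of all 35116 windows. CACGTG was in ATG3 alone and in 7.26% of windows, and the CLEAR element, CACGTG flanked by GT and AC, was in 0 members and 0.353% of windows. TGACNNNGC was in MAP1LC3B alone and in 13.3% of windows, and TGACGTG, which overlaps TGACGTCA in its first letters, was in ATG3 alone and in 1.97%. The RefSeq and GENCODE starts differ for some members. By GENCODE positions the windows of GABARAPL1, MAP1LC3B, ATG16L1 and BECN1, among others, lie inside the gene. A window therefore need not hold the promoter used in these cells.

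The Tg libraries held 139, 133 and 135 CPM of WIPI1, where the vehicle libraries held 25.0, 25.0 and 24.1 CPM. The highest value in any library of the other conditions was 44.01 CPM. The rise under Tg was 2.45 on the log2 scale (SE 0.11, edgeR adjusted p = 6.61e-18), and it was called under every alternative run. Under AA132 the WIPI1 libraries held 33.9, 38.2 and 37.9 CPM at 15 µM and 37.1, 38.5 and 44.01 CPM at 30 µM, all above the vehicle libraries. The increases were 0.57 at 15 µM (SE 0.11, edgeR adjusted p = 0.00216) and 0.69 at 30 µM (SE 0.11, adjusted p = 0.00012). At 10 µM library 1 held 25.5 CPM and the other libraries 33.1 and 36.3 CPM, and the increase of 0.36 was not called (SE 0.11, adjusted p = 0.119). Without that library the increase was 0.48 and called (adjusted p = 0.0161), and without the 3 libraries that stood apart it was 0.50 (adjusted p = 0.00434; range over all alternatives 0.00434 to 1.00).

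The ubiquitin-like conjugation genes, ATG3, ATG5, ATG12 and ATG16L1, had small differences under Tg, and of the 4 ATG3 and ATG5 were called higher, ATG16L1 lower and ATG12 in neither direction. ATG3, the enzyme that transfers ATG8 proteins to lipid, is on chromosome 3 (112532510 to 112562046, minus strand). Its Tg libraries held 47.3, 53.2 and 48.7 CPM, all above the vehicle libraries at 44.1, 40.8 and 39.6 CPM. ATG3 rose by 0.26 under Tg (SE 0.073, edgeR adjusted p = 0.00587), and the call was lost without Tg library 2 (0.21, adjusted p = 0.0550; range over all alternatives 0.00125 to 0.0886). ATG3 was called at 0 AA132 doses and lay between 37.8 and 42.0 CPM as condition means.

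ATG5, the partner that ATG12 is joined to, is on chromosome 6 (106045423 to 106325791, minus strand). It stood at 120, 116 and 118 CPM under Tg and at 100, 104 and 102 CPM under vehicle, without overlap. The rise of 0.21 under Tg (SE 0.079, edgeR adjusted p = 0.0394) did not survive the loss of any single library of the comparison, where it was 0.18 to 0.22 with adjusted p of 0.0647 to 0.14, and it was lost in 16 of 33 fits that left out 1 library. It was called without the 3 libraries that stood apart (0.19, adjusted p = 0.0167; range over all alternatives 0.0167 to 0.14). Library 1 of AA147 (127 CPM) and of AA132 10 µM (131 CPM), which are among these 3, held the highest ATG5 values of the 33.

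ATG16L1, which places the conjugation complex on the membrane, is on chromosome 2 (233210051 to 233295674, plus strand). It was lower under Tg, with 42.1, 46.4 and 40.3 CPM against 48.4, 47.8 and 48.9 CPM under vehicle. The fall of 0.17 (SE 0.065, edgeR adjusted p = 0.0425) was lost without vehicle library 1 or 3 or Tg library 1 or 3, at -0.18, -0.17, -0.17 and -0.14 with adjusted p of 0.06, 0.0912, 0.098 and 0.164, and with no filter on low counts (adjusted p = 0.195; range over all alternatives 0.0152 to 0.209). ATG12, the ubiquitin-like modifier (chromosome 5, 115828200 to 115841837, minus strand), held 68.5, 67.9 and 71.4 CPM under Tg, and vehicle library 2 at 68.4 CPM overlapped them. Its log2 change under Tg was 0.16 (SE 0.063, edgeR adjusted p = 0.0516) and became a call without vehicle library 2 (0.22, adjusted p = 0.00921) and with DESeq2 (adjusted p = 0.0419; range over all alternatives 0.00921 to 0.292). Its deposited counts were fractional in 18 libraries and were rounded.

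Of the ATG8-family members, GABARAPL1 rose under both treatments and MAP1LC3B rose slightly under Tg. GABARAPL1, which acts late in autophagosome growth and closure, is on chromosome 12 (10212458 to 10223128, plus strand). Vehicle libraries held 24.0, 25.9 and 26.2 CPM, Tg libraries 33.4, 30.2 and 30.0 CPM and AA132 30 µM libraries 38.6, 44.9 and 51.2 CPM. The sets did not overlap, and the AA132 libraries spread most. GABARAPL1 rose by 0.30 under Tg (SE 0.10, edgeR adjusted p = 0.0237) and by 0.82 under AA132 at 30 µM (SE 0.10, adjusted p = 1.28e-06), a 1.77-fold rise called under every alternative run. The Tg call was lost without vehicle library 1 (0.25, adjusted p = 0.0881), vehicle library 2 (0.30, adjusted p = 0.0521) or Tg library 1 (0.23, adjusted p = 0.148) and without the 3 libraries that stood apart (0.25, adjusted p = 0.065; range over all alternatives 0.0146 to 0.148).

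GABARAPL1 was also the first member called as the AA132 dose increased. At 6 µM its libraries held 34.7, 33.5 and 32.4 CPM, all above vehicle, with an increase of 0.40 (SE 0.10, edgeR adjusted p = 0.0406). That call was lost without any 1 of the 6 libraries compared, at 0.37 to 0.43 with adjusted p of 0.0671 to 0.171, and in 14 of 33 fits that left out 1 library, while without the 3 libraries that stood apart it was 0.37 (adjusted p = 0.033; range over all alternatives 0.00432 to 0.268). At 10 µM the increase was 0.56 (SE 0.10, adjusted p = 0.00118) and at 15 µM 0.55 (SE 0.10, adjusted p = 0.00106).

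MAP1LC3B, the gene of the LC3B protein that marks autophagosomes, is on chromosome 16 (87383953 to 87404779, plus strand). Its counts cannot be separated with certainty from those of MAP1LC3B2 on chromosome 12 (116548105 to 116576606, plus strand). The coding sequences of the pair are 378 bases long and 99.47% identical. They differ at 2 positions, counted from 1 at the first coding base, which are C30G and A338G with the MAP1LC3B base first. The first 120 coding bases of each are shown, with the differing base in capitals.
MAP1LC3B: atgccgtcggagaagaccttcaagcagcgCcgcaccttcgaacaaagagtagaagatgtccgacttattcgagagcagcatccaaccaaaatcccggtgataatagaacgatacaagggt
MAP1LC3B2: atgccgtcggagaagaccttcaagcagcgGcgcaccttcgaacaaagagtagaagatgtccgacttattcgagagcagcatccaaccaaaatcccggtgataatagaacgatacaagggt
The longest run that the coding sequences share is 307 bases, and how the counting treated reads from it is not given in the sources used here. Of all 100-base windows of the MAP1LC3B transcript (2147 bases), 13.48% occur in the MAP1LC3B2 transcript (818 bases), and 38.39% in the other direction. The deposited counts of both genes were fractional in 0 libraries. MAP1LC3B held 14.5, 12.7 and 15.8 CPM under vehicle and 16.8, 17.8 and 17.9 CPM under Tg, without overlap. Its rise of 0.29 under Tg (SE 0.11, edgeR adjusted p = 0.0432) was among the least stable calls. It was lost in 17 of 33 fits that left out 1 library, 5 of them fits without a library of the comparison (0.19 without vehicle library 2, adjusted p = 0.243; 0.25 to 0.30 without vehicle library 1 or Tg library 1, 2 or 3, adjusted p = 0.0707 to 0.135). It was also lost without the 3 libraries that stood apart (0.29, adjusted p = 0.0579). MAP1LC3B2 stood at 22.1 ± 1.06 CPM under vehicle and 26.0 ± 1.51 CPM under Tg (SD, n = 3). The summed counts of the pair rose by 0.25 under Tg (SE 0.085, edgeR adjusted p = 0.0211; range over all alternatives for MAP1LC3B 0.0211 to 0.243). Under AA132 at 30 µM the sum changed by 0.13 (SE 0.085, adjusted p = 0.43).

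NBR1, the cargo receptor of the set (chromosome 17, 43170481 to 43211689, plus strand), was called in 0 comparisons with edgeR and 0 with any alternative run. It held 111, 146 and 142 CPM under vehicle, where library 1 was the lowest of the 33, and 144, 145 and 139 CPM under Tg. The log2 change under Tg was 0.11 with a 95% interval of -0.03 to 0.24, and under AA132 at 30 µM it was 0.09 with an interval of -0.05 to 0.23.

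**Figure D2:**
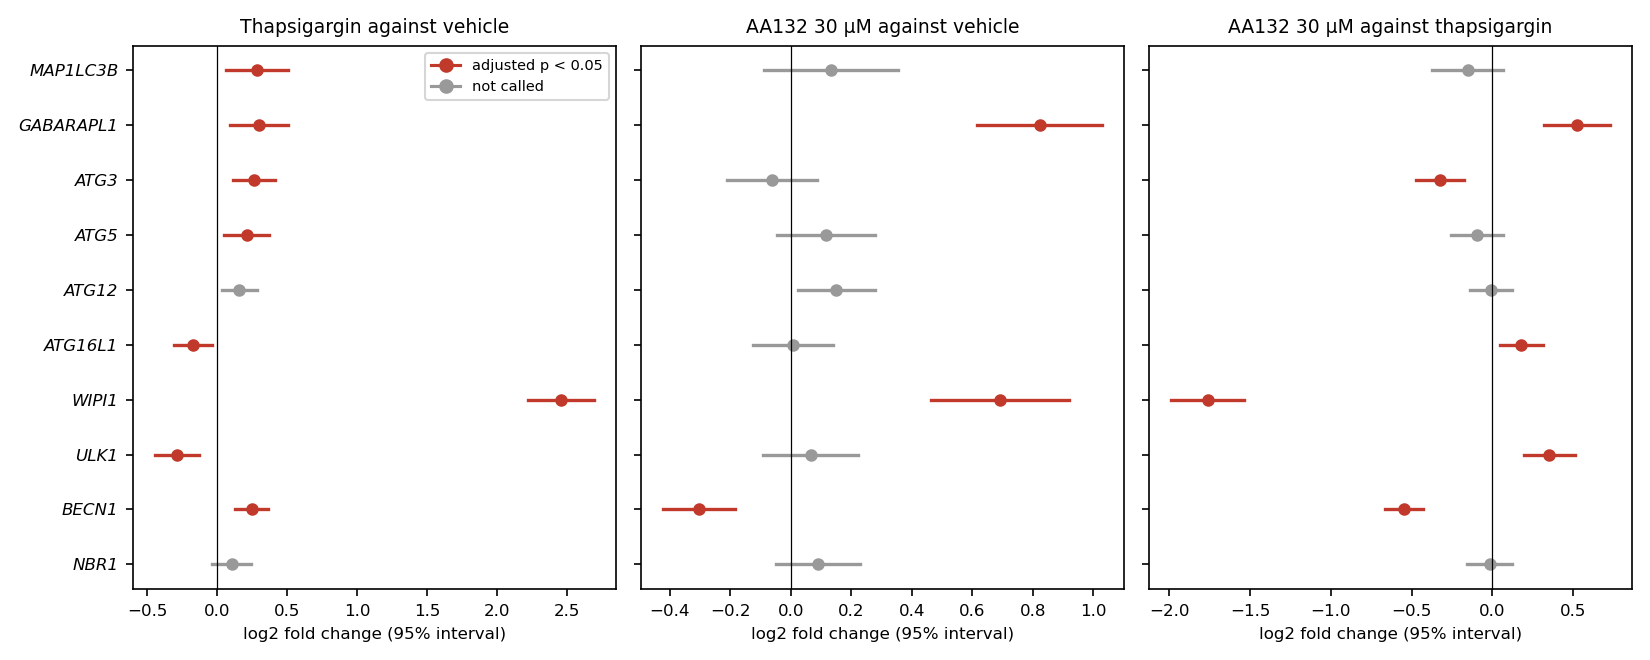
Log2 fold changes of the 10 genes with 95% intervals from the edgeR fit, for thapsigargin against vehicle, AA132 at 30 µM against vehicle, and AA132 at 30 µM against thapsigargin; the horizontal scale differs between panels, and red marks an adjusted p under 0.05. WIPI1 stands at 2.45 in the first panel, GABARAPL1 at 0.82 in the second and WIPI1 at -1.76 in the third.

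A direct comparison of AA132 at 30 µM with Tg called 6 of the 10 members, against 29.8% of all genes tested. The 3 higher under AA132 (14.3% of all genes) were GABARAPL1 by 0.52 (SE 0.10, edgeR adjusted p = 0.000117), ULK1 by 0.35 (SE 0.077, adjusted p = 0.000624) and ATG16L1 by 0.18 (SE 0.065, adjusted p = 0.0365). The 3 lower (15.5% of all genes) were WIPI1 by -1.76 (SE 0.11, edgeR adjusted p = 3.01e-14), BECN1 by -0.55 (SE 0.058, adjusted p = 5.32e-09) and ATG3 by -0.32 (SE 0.073, adjusted p = 0.000851). All but ATG16L1 were called under every alternative run. ATG16L1 was lost without Tg library 1 (0.18, adjusted p = 0.0919), Tg library 3 (0.15, adjusted p = 0.153), AA132 library 2 (0.19, adjusted p = 0.0542) or AA132 library 3 (0.11, adjusted p = 0.29; range over all alternatives 0.0107 to 0.29). The ATG16L1 call was also lost with no filter on low counts (edgeR adjusted p = 0.163). A fit of only the 2 conditions compared lost it as well (edgeR adjusted p = 0.0706).

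Across the 24 AA132 libraries, 4 members had a called slope on log10 dose, against 18.7% of the 17553 genes tested there. The slope is the change in log2 expression per 10-fold increase in dose. It was positive in 3 members (9.82% of genes), at 0.38 for GABARAPL1 (SE 0.034, edgeR adjusted p = 6.46e-10), 0.30 for WIPI1 (SE 0.041, adjusted p = 2.06e-06) and 0.10 for ATG12 (SE 0.017, adjusted p = 8.4e-05). It was negative in 1 (8.89% of genes), BECN1 at -0.08 (SE 0.021, adjusted p = 0.00511). GABARAPL1 went from 23.8 ± 0.488 CPM at 0.1 µM to 33.5 ± 1.17 CPM at 6 µM and 44.9 ± 6.28 CPM at 30 µM (SD, n = 3). WIPI1 went from 23.6 ± 1.32 CPM at 0.1 µM to 30.8 ± 1.37 CPM at 6 µM and 39.9 ± 3.64 CPM at 30 µM. Without the 30 µM dose the BECN1 slope was -0.04 and not called (adjusted p = 0.168; range over all alternatives 0.0012 to 0.168), and the other 3 slopes were still called. ATG12 ranged from 56.6 ± 0.61 CPM at 0.1 µM to 68.9 ± 1.42 CPM at 30 µM. ATG5 had a slope of 0.06 that missed the threshold (SE 0.024, adjusted p = 0.0543).

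**Figure D3:**
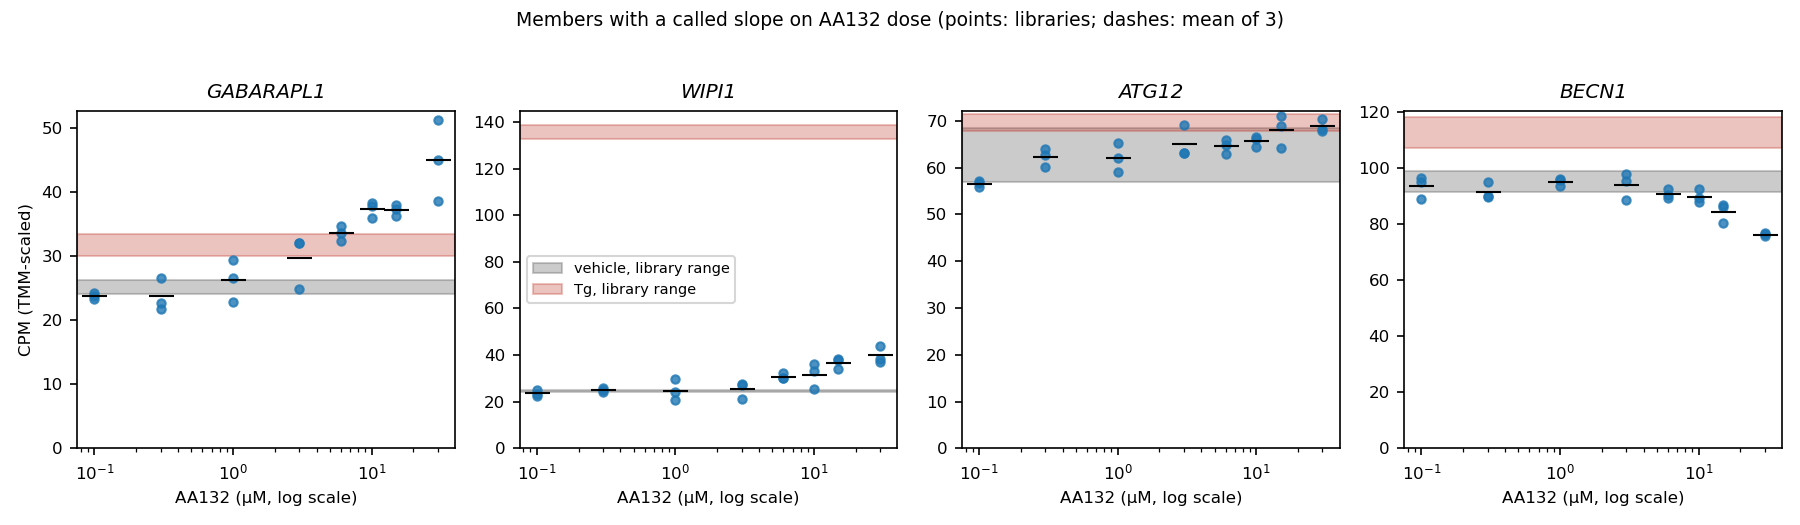
TMM-scaled CPM of the 4 members with a called slope, by AA132 dose on a log axis; points are libraries, dashes the mean of 3, and bands the range of the vehicle and thapsigargin (Tg) libraries. GABARAPL1 passed the Tg band at 10 µM and above, WIPI1 stayed below its Tg band at 133 to 139 CPM, and BECN1 fell below the vehicle band at 15 and 30 µM.

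AA132 and AA147 share a dose of 10 µM, which gave 1 pair to compare, with p-values adjusted over all genes. Called members were 0 with edgeR and 0 with DESeq2, against 0.0674% of all genes. An unadjusted p under 0.05 was found in 2 members and in 1426 of all 17792 genes. GABARAPL1 libraries held 38.2, 37.8 and 35.8 CPM under AA132 and 33.6, 29.9 and 27.1 CPM under AA147, and AA132 was higher by 0.30 with a 95% interval of 0.10 to 0.51 (edgeR adjusted p = 0.365). WIPI1 libraries held 25.5, 33.1 and 36.3 CPM under AA132 and 22.2, 26.8 and 27.3 CPM under AA147, a difference of 0.31 with an interval of 0.08 to 0.54 (adjusted p = 0.405). The GABARAPL1 sets did not overlap, and the WIPI1 sets did. The widest bounds among the other 8 members were -0.25 for ULK1 and 0.28 for MAP1LC3B, so larger differences between the compounds lay outside their intervals. Against vehicle, AA147 changed GABARAPL1 by 0.25 (interval 0.04 to 0.46, edgeR adjusted p = 0.646) and BECN1 by -0.12 (interval -0.24 to -0.003, adjusted p = 0.713), and neither was called.

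Ordered by condition mean, few neighbouring conditions were separated by more than their library ranges. Each gene gave 10 neighbouring pairs. The same count was not made over all genes, so whether these numbers of breaks are usual was not tested. WIPI1 had 2 breaks, between Tg and AA132 30 µM and between AA132 6 µM and AA147. GABARAPL1 had 2, between AA132 30 µM and 10 µM and between AA132 15 µM and 6 µM. BECN1 had 2, between Tg at the top and AA132 1 µM, and between AA132 15 µM and 30 µM at the bottom. ATG3 broke between Tg and AA132 1 µM, ULK1 between AA132 10 µM and Tg at the bottom, ATG5 between AA132 15 µM and vehicle, and ATG12 between AA147 and AA132 0.1 µM. MAP1LC3B, ATG16L1 and NBR1 had 0 breaks. The highest condition mean was 5.73 times the lowest for WIPI1, 1.90 times for GABARAPL1 and 1.46 times for BECN1, and between 1.09 and 1.31 times for the other 7.

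Levels can be compared between genes only per length. Divided by the length of the GENCODE v44 canonical transcript, which need not be the form counted, BECN1 was the highest under vehicle at 44.6 ± 2.01 CPM per kilobase (SD, n = 3). ATG5 followed at 32.03 ± 0.495, NBR1 at 28.7 ± 4.17, ATG3 at 26.5 ± 1.495 and ULK1 at 20.3 ± 2.70 CPM per kilobase. ATG12, ATG16L1, GABARAPL1 and WIPI1 lay between 12.9 and 15.4 CPM per kilobase, and MAP1LC3B was lowest at 6.68 ± 0.739 CPM per kilobase, a value that depends on how reads were shared with MAP1LC3B2.

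The genes whose condition means most resembled those of a member were found by Pearson correlation of mean log2 CPM over the 11 conditions, among 11226 genes with a mean of at least 5 CPM. These are descriptions, since both genes of a pair are measured in the same libraries and those named have the highest r of all candidates. For WIPI1 they were CARS (r = 0.998), TRIB3 (r = 0.996) and AARS (r = 0.996). Mean WIPI1 was 135 CPM under Tg and 23.6 to 39.9 CPM in the other conditions, so the Tg mean weighs heavily in these r values. CARS and AARS encode aminoacyl-tRNA synthetases and TRIB3 a pseudokinase. The log2 changes under Tg were 0.98 for CARS, 3.89 for TRIB3 and 1.25 for AARS. For ULK1 they were LPCAT4 (r = 0.955), GATSL2 (r = 0.943) and CC2D1B (r = 0.940). For GABARAPL1, chosen after its values were seen, they were GCLM (r = 0.983), a subunit of the enzyme that starts glutathione synthesis, TXNRD1 (r = 0.974), a thioredoxin reductase, and SGCE (r = 0.972). The log2 changes of GCLM and TXNRD1 were 0.49 and 0.37 under Tg and 1.36 and 0.84 under AA132 at 30 µM. For BECN1, also chosen later, they included EBNA1BP2 (r = 0.979) and ATAD3A (r = 0.974).

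A wider list of 65 autophagy and lysosome genes, of which 64 were tested (MAP1LC3C was not), placed the 10 members among their pathway. Under Tg 23 of the 64 were called, 13 higher and 10 lower, beside the 31.2% of all genes, and the median log2 change was -0.0032. Without the 3 libraries that stood apart 26 were called, 15 higher and 11 lower. By direction, 16.2% of all genes were called higher under Tg and 15% lower, for comparison with the counts by role that follow. Of 4 further genes of the ULK complex group, 3 were called higher, while ULK1 itself was lower, and ULK2, the alternative kinase, was not called (-0.02, SE 0.064). The 3 included the scaffold ATG13 at 0.74 (SE 0.066, edgeR adjusted p = 6.36e-11), with 130 ± 5.55 CPM under Tg against 77.9 ± 4.52 CPM under vehicle, and RB1CC1 at 0.62 (SE 0.13, adjusted p = 0.000475). RB1CC1 changed by 0.39 without the 3 libraries that stood apart (SE 0.084, adjusted p = 0.00029). Beside WIPI1, 2 of 8 genes of membrane supply and PI3P binding were called (3 without the 3 libraries that stood apart), all higher. The 2 were WDR45, a relative of WIPI1, at 0.69 (SE 0.079, adjusted p = 1.6e-08) and TMEM41B, a lipid scramblase, at 0.74 (SE 0.089, adjusted p = 5.52e-08).

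Beside BECN1, 1 of the 7 other genes of the PI3-kinase complex was called higher and 2 lower under Tg, and without the 3 libraries that stood apart 0 were higher and 3 lower. Of the 6 other conjugation genes and ATG4 proteases 0 were called with edgeR, and ATG4B and ATG4D became called, both higher, without the 3 libraries that stood apart (0.21 and 0.26, adjusted p = 0.00837 and 0.00473). Of 8 cargo receptors other than NBR1, 4 were called higher (3 without the 3 libraries that stood apart), among them CALCOCO2 at 0.64 (SE 0.071, edgeR adjusted p = 9.88e-09). Of 5 transcription regulators 2 were called higher and 0 lower. Among them MITF, a transcription factor of lysosomal genes, rose by 0.71 (SE 0.18, edgeR adjusted p = 0.00295) at 4.20 ± 1.12 CPM under vehicle. Without the 3 libraries that stood apart 2 were higher and 1 lower. In that fit MITF rose by 0.51 (edgeR adjusted p = 0.0213) and FOXO1 was called at -0.53 (adjusted p = 0.00182). Of 17 lysosome genes 0 were called higher and 7 lower, among them CTSA, which encodes a lysosomal carboxypeptidase, at -0.62 (SE 0.067, edgeR adjusted p = 4.8e-09). Without the 3 libraries that stood apart 1 lysosome gene, HEXA, was called higher and 6 lower.

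Under AA132 at 30 µM 5 of the 64 wider genes were called, all higher, beside the 7.05% of all genes (3.86% called higher). SQSTM1, the cargo receptor p62 and a relative in function of NBR1, rose by 0.67 (SE 0.08, edgeR adjusted p = 9.39e-07), with 325 ± 19.4 CPM against 205 ± 21.4 CPM under vehicle and 184 ± 3.76 CPM under Tg (SD, n = 3). NEU1, a lysosomal sialidase, rose by 0.57 (SE 0.091, adjusted p = 0.000102), and TFE3, GLA and TPP1 by 0.46, 0.36 and 0.27. TPP1 was not called without the 3 libraries that stood apart (0.17, edgeR adjusted p = 0.103), and the other 4 were. This count depended on the libraries. It was 12 without vehicle library 1, 8 without AA132 10 µM library 1, and 19 without the 3 libraries that stood apart, of which 17 were higher and 2 lower, when 15.1% of all genes were called. In that fit 8 of 17 lysosome genes and 3 of 8 cargo receptors were called higher. The 15.1% covers both directions, and the share of genes called higher alone is not reported here. Members called at 30 µM in that fit were again GABARAPL1 at 0.79, WIPI1 at 0.70 and BECN1 at -0.26 (edgeR adjusted p = 2.65e-06, 1.12e-05 and 0.00103). Under AA147 0 of the 64 were called with edgeR, and 7 had an unadjusted p under 0.05, beside 1211 of all 17792 genes.

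**Figure D4:**
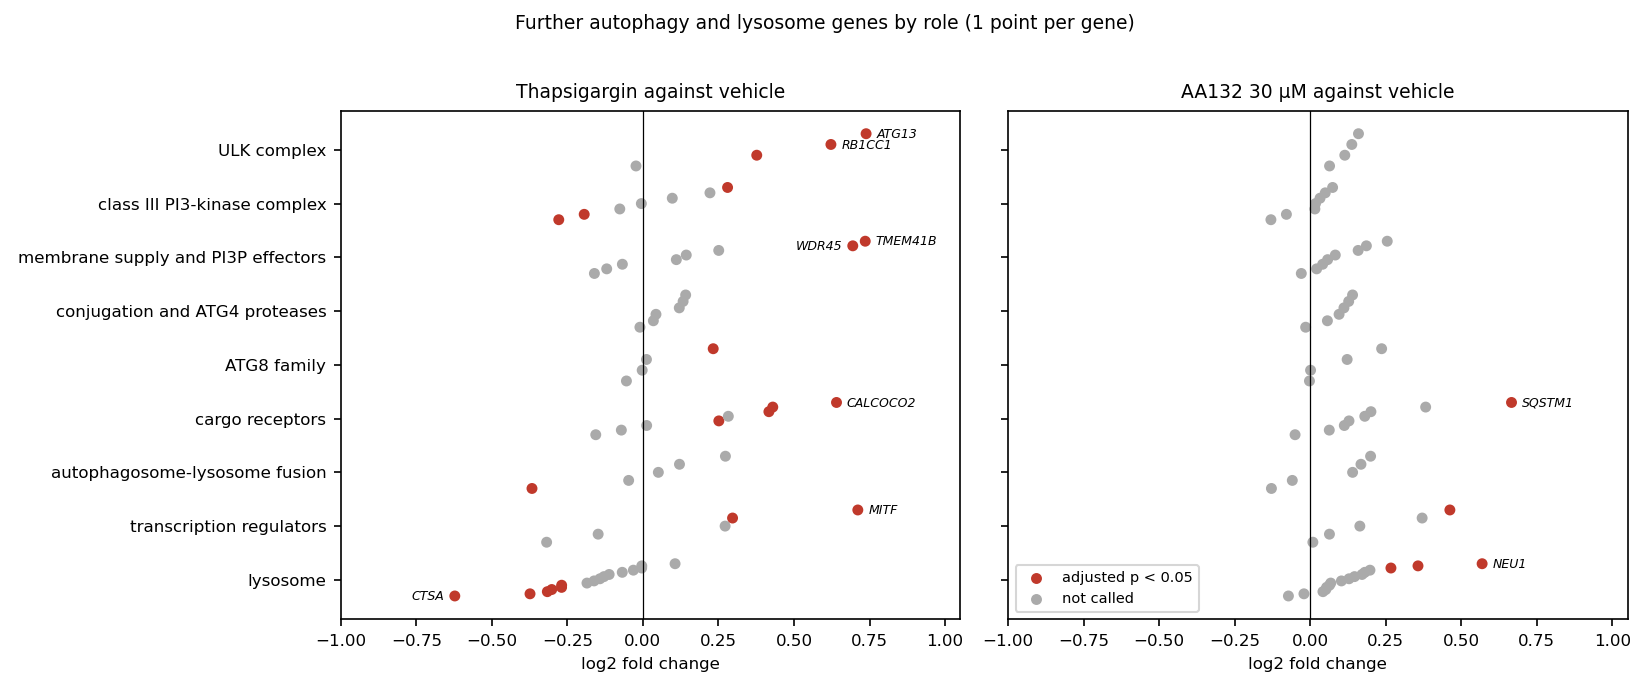
Log2 fold changes of further autophagy and lysosome genes by role, for thapsigargin and for AA132 at 30 µM against vehicle; each point is a gene, red marks an adjusted p under 0.05 in the edgeR fit, and called genes at an absolute log2 change of 0.5 or more carry their symbol. ATG13 and TMEM41B stand at 0.74 under thapsigargin with CTSA at -0.62, and SQSTM1 stands at 0.67 under AA132.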

How the data were processed

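RNA sequencing reads of 33 HEK293T libraries had been summarised per gene in expected counts (estimated read totals, deposited by the authors without scaling), per the file headers. The submitters' processing notes name GRCh38.p7. The aligner, counting tool, annotation and use of strand are not given in the sources used here. In the deposited counts 0.009 stands in for 0 (43.5% of cells) and 3.22% of cells are fractional. The stand-in was set to 0, 38074 rows were summed by name to 38019 genes, and values were rounded.

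All 11 conditions entered 1 quasi-likelihood fit of edgeR 4.0.16 in R 4.3.3 (limma 3.58.1), with TMM scaling, the edgeR filter on low counts and no replicate block. Benjamini-Hochberg adjustment ran over all genes tested, with a threshold of 0.05. The slope on log10 dose used 24 libraries. The coefficient of variation between libraries was 9.09%. CPM values are scaled by TMM. Alternatives were RLE scaling, no filter, a replicate block, fits of only the 2 conditions compared, DESeq2 1.42.0, a slope without 30 µM and each library left out. The model was run on simulated data that had the same spread for every gene and no library standing apart. That run therefore does not measure how reliable the calls are in these data.

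The members and lists were chosen with earlier results of these data known. Named genes were the 10 members, wider-list genes called under Tg or AA132 30 µM at an absolute log2 change of at least 0.5, SQSTM1, treatment markers, and the 3 genes most like the members with the largest rise and fall under Tg. Other wider-list genes, the resembling genes for GABARAPL1 and BECN1, the motifs TGACNNNGC, TGACGTG and TGACGTCA, the sum of MAP1LC3B with MAP1LC3B2, and the omission of 3 libraries were added after values had been seen. Some genes that these rules select are counted but are not reported by name here. Promoters are RefSeq windows, and positions and coding sequences are from GENCODE v44.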

Additional observations from a re-analysis of the deposited data

How the results depend on the processing

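The 30 member results followed here are those called in at least 1 setting, so their direction had little room to change. Of these, 0 changed direction under any alternative, and 11 of 25 called in the main fit stayed called in every setting run. Member results never called were not followed. Fitting only the 2 conditions compared lowered the called members to 1 under Tg (7 at an unadjusted p under 0.05) and to 0 at AA132 6, 10 and 15 µM, and the wider list to 13 under Tg and 2 at 30 µM. Such fits have fewer libraries to estimate the spread. Except without the 3 libraries that stood apart, the share of all genes called in each alternative is not reported here. A change in these counts therefore cannot be told from a change over all genes. With no filter on low counts 2 members were called at 6 µM and 2 at 10 µM, WIPI1 being added to GABARAPL1 (adjusted p = 0.0463 and 0.0147). Leaving out 1 library at a time gave 3 to 8 members called under Tg, 0 to 1 at 6 µM, 1 to 2 at 10 µM (2 without its library 1), 2 to 2 at 15 µM, 3 to 4 at 30 µM, 5 to 6 for 30 µM against Tg, 4 to 5 for the slope, and 0 to 0 for AA147, AA132 at 0.1 to 3 µM and AA132 against AA147. For the wider list it gave 19 to 29 under Tg, 4 to 12 at 30 µM and 14 to 20 for the slope. The lowest count under Tg, 3, came without vehicle library 1. Without Tg library 1, 2 or 3 it was 4, 5 and 5. The omission of the 3 libraries that stood apart, chosen after seeing the data, gave 2 members at 10 µM and 19 wider-list genes at 30 µM. In that fit 7.73% and 15.1% of all genes were called at these doses. With a replicate block 8 members were called under Tg and 3 at 30 µM, MAP1LC3B being lost (adjusted p = 0.051) and ATG12 gained (0.0489), and the wider list gave 22 under Tg. Library numbers did not pair the samples, as deviations of same-numbered libraries correlated at -0.147 to 0.183 and 14 of 33 libraries correlated best with their own number, so this is a hint from the data only. RLE scaling moved 0 member calls. ATG12 at 30 µM was called without vehicle library 2 alone (0.22, adjusted p = 0.0301), and the ATG5 slope in 4 fits that left out a library. At counts of 467 and above, the spread between libraries rather than counting error set the precision.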

Other observations

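Of the 64 wider-list genes, 30 differed between AA132 at 30 µM and Tg, 20 higher and 10 lower under AA132, beside 29.8% of all genes tested. By direction, 14.3% of all genes were called higher and 15.5% lower. The lysosome genes gave 13 of 17 higher and 0 lower, with CTSA at 0.73 (SE 0.067, edgeR adjusted p = 2.4e-10). Of the 8 cargo receptors 2 were higher and 3 lower, with SQSTM1 at 0.82 (SE 0.081, adjusted p = 9.09e-10) and CALCOCO2 at -0.46 (SE 0.071, adjusted p = 5.09e-06). Of the 4 further genes of the ULK complex group 3 were lower, ATG13 at -0.62, RB1CC1 at -0.48 and ATG101 at -0.31, and ULK2, a second ULK kinase, was higher at 0.18.

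Along the AA132 doses 16 of the 64 had a called slope, 15 higher and 1 lower, beside 18.7% of all genes (9.82% higher and 8.89% lower). SQSTM1 had the steepest slope per 10-fold dose, 0.30 (SE 0.027, edgeR adjusted p = 4.37e-10), followed by NEU1 at 0.23 (SE 0.03, adjusted p = 1.23e-06), and 8 of 17 lysosome genes rose. The gene that fell was AMBRA1, a partner of BECN1, at -0.07 (SE 0.018, adjusted p = 0.00318). The genes named here other than those chosen by the rule were picked after their values were seen.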
